A study of Homo sapiens with 6 samples.

Results

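The genes described here serve antigen presentation by MHC class I: TAP1, TAP2, TAPBP, B2M, HLA-B, HLA-C, HLA-E, PSMB8 and PSMB9. They were chosen by name, and every probe set that the platform annotation ties to exactly 1 of them was taken, which gave 23 probe sets for 9 genes out of 54613 probe sets and 19775 named genes. All samples were the Hodgkin lymphoma cell line L428, nucleofected either with a locked nucleic acid (LNA) that inhibits the microRNA miR-9 or with an LNA of scrambled sequence. Total RNA of the 9 h time point was read on 6 Affymetrix HG-U133 Plus 2.0 arrays, 3 per group. L428 is a single cell line, and the labels do not say whether replicates were separate cultures or transfections, so the p-values measure only the spread between these samples, which may be technical. In bulk RNA, fewer expressing cells and less RNA per cell cannot be told apart.

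MHC class I molecules display peptides from inside the cell to cytotoxic T cells. Proteasomes cut proteins into peptides, TAP1 and TAP2 form the pump that carries them into the endoplasmic reticulum, and TAPBP (tapasin) holds the pump beside empty class I molecules. Each molecule is a heavy chain, such as HLA-B, HLA-C or HLA-E, paired with the light chain beta-2-microglobulin (B2M). PSMB8 and PSMB9 are catalytic subunits of the immunoproteasome, a form induced by interferon. Interferon and NF-kB signalling and the transactivator NLRC5 are known to raise transcription of many of these genes, and Hodgkin lymphoma cells often lose class I from their surface.

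The inhibited microRNA is given first, since its inhibitor is what separates the groups. The RefSeq mature sequence of hsa-miR-9-5p, the arm usually meant by miR-9, is shown with its seed, bases 2 to 8, in capitals.
hsa-miR-9-5p: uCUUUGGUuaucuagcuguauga

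Values are deposited RMA expression on a log2 scale. The lowest value on each array lay between 5.97 and 6.08, and no source used here says whether a constant was added before the log, which would shrink every fold. A difference is always the miR-9 LNA mean minus the scrambled LNA mean, given with its limma standard error, and group means carry SDs with n = 3 arrays. A probe set was tested where its mean over the 6 arrays reached 7.11, the median of all, and the threshold was a limma adjusted p of 0.05 over 27307 tested probe sets. Scrambled replicate 1 stood apart: its 90th percentile was 9.28 against 9.45 to 9.57 on the other arrays, and its dap spike-in, an added bacterial RNA, averaged 10.05 against 7.97 to 8.55. It was the lowest of the 6 arrays at 44.3% of tested probe sets and at 73.7% of those in the brightest of 5 equal bins by level. All 10 Hodgkin line markers examined were tested, with TNFRSF8 (CD30) at 10.57 ± 0.15 and 10.45 ± 0.097 in the miR-9 and scrambled groups. Of 10 T or NK cell markers 3 reached the level for testing, with means of 7.15 to 7.48, and of 6 macrophage or dendritic cell markers 1 did, with 1 more lacking a probe set of its own. Of 7 fibroblast or endothelial markers 5 were tested, with means of 7.11 to 8.16, the highest being COL1A1, at 8.14 ± 0.14 and 8.18 ± 0.037. Of 7 B cell markers 4 were tested, with means of 7.26 to 7.44, and FCRLA differed by -0.23 ± 0.059 (limma unadjusted p = 0.00517, adjusted p = 0.296). The part of these markers in the class I values was not tested.

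None of the class I genes differed past the threshold between the miR-9 LNA and the scrambled LNA. TAP2 had the largest difference among them, 0.38 on the log2 scale or 1.30-fold, at 1 of its 4 probe sets. HLA-E lay 0.20 higher at 1 of 3 probe sets, and TAP1 lay 0.18 higher at its only one. HLA-B, HLA-C, B2M, PSMB8 and PSMB9 lay 0.14 to 0.23 higher at their brightest probe sets, with overlapping groups, and TAPBP differed by -0.0061 at its brightest.

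Of the 23 probe sets, 22 were tested, the exception being TAP2 208428_at. None of the 22 passed, as 0 of 27307 probe sets (0%) did in the whole test by limma, where the smallest adjusted p reached 0.296. With limma's p taken unadjusted and under 0.05, 3 of 22 lay higher with the miR-9 LNA (TAP2 225973_at, HLA-E 200904_at and TAP1 202307_s_at), a share of 13.6% beside 13.8% of all tested probe sets, and 0 lay lower beside 0.626%. Every miR-9 array exceeded every scrambled array at 4 of 22, 18.2% beside 18.1% of all, and the reverse held at 0 beside 3.97%. Both shares of higher probe sets lie close to those over all tested probe sets, so these counts are no result about class I genes. That background depends on level. With an unadjusted limma p under 0.05, 31.2% of all probe sets in the brightest of the 5 bins lay higher. The share was 24.9% in the next bin and 0.97% in the dimmest. The brightest bin held 15 of the 22 class I probe sets. In all, 16 of 22 lay higher, beside 66.9% of all tested probe sets.

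**Figure D1:**
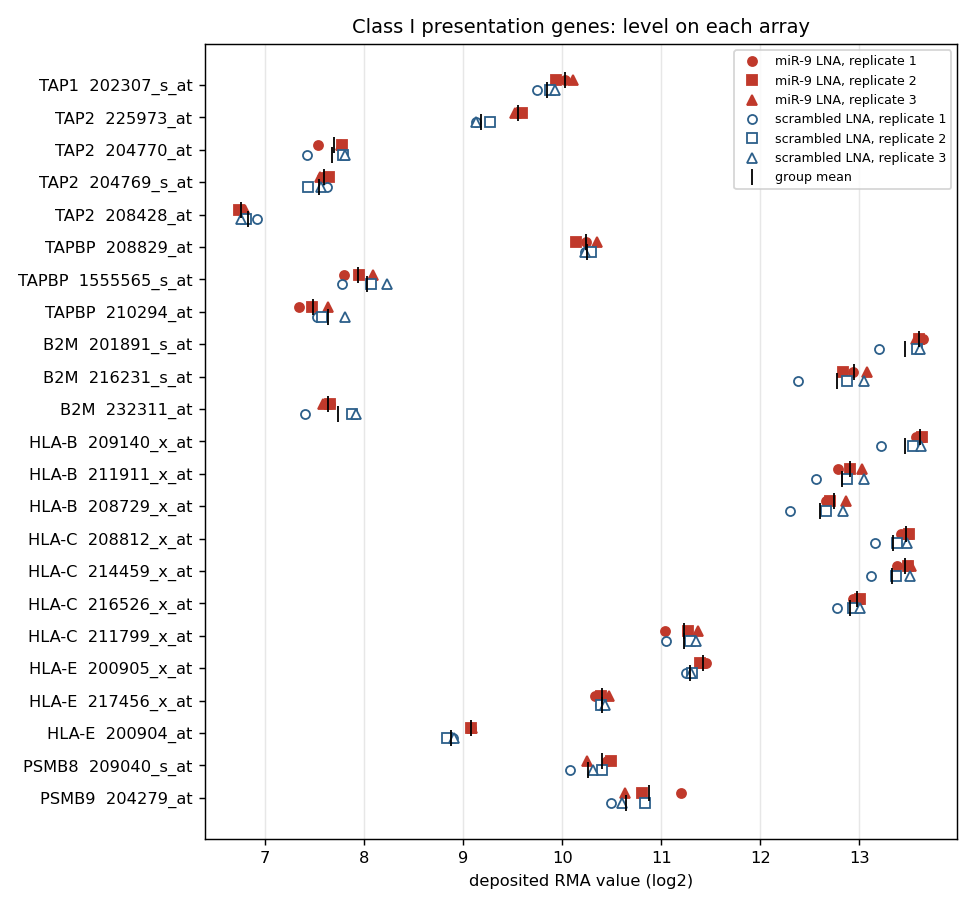
Deposited log2 RMA value (horizontal axis) of each of the 23 class I probe sets (vertical axis) on each array. Filled red symbols are the miR-9 LNA, open blue symbols the scrambled LNA, the symbol shape gives the replicate and black ticks are group means. Groups separate at TAP2 225973_at, TAP1 202307_s_at, HLA-E 200905_x_at and HLA-E 200904_at, and scrambled replicate 1 is the lowest array at 16 of the 22 tested probe sets.

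TAP1 and TAP2 make up the peptide pump, and both lie in the class II region of chromosome 6, in the order TAP2, PSMB8, the antisense gene PSMB8-AS1, TAP1 and PSMB9 in the RefSeq gene table. TAP2 225973_at read 9.56, 9.59 and 9.52 on miR-9 LNA replicates 1, 2 and 3, and 9.13, 9.27 and 9.13 on the scrambled replicates. Every miR-9 array was above every scrambled array. The means were 9.56 ± 0.034 and 9.18 ± 0.084, a difference of 0.38 ± 0.065 (limma unadjusted p = 0.000508, adjusted p = 0.296; exact permutation p = 0.1, two-sided, the smallest that 3 against 3 arrays allow). Over the alternatives its limma adjusted p ranged from 0.121 to 0.9. The TAP2 difference was 0.36 without scrambled replicate 1 and 0.23 after quantile normalization (limma unadjusted p = 0.0109), and it was positive in all 3 same-numbered pairs, at 0.44, 0.32 and 0.39.

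The other TAP2 probe sets gave smaller differences. TAP2 204770_at read 7.53, 7.78 and 7.77 with the miR-9 LNA and 7.42, 7.78 and 7.80 with the scrambled LNA. Its groups overlapped, with a difference of 0.022 ± 0.12 that was -0.10 without scrambled replicate 1. TAP2 204769_s_at differed by 0.049 ± 0.070 and 208428_at, below the level for testing, by -0.067 ± 0.058. Across the 6 arrays the 4 TAP2 probe sets varied apart, with pairwise Pearson r from -0.61 to 0.20 over 6 pairs. The TAP2 difference thus rests on 225973_at alone.

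TAP1 202307_s_at read 10.03, 9.94 and 10.11 with the miR-9 LNA and 9.75, 9.88 and 9.92 with the scrambled LNA. The groups did not overlap, but miR-9 replicate 2 and scrambled replicate 3 lay next to each other. TAP1 means were 10.03 ± 0.084 and 9.85 ± 0.091, a difference of 0.18 ± 0.074 (limma unadjusted p = 0.0483, adjusted p = 0.344). Without scrambled replicate 1 it was 0.12 ± 0.069 (limma unadjusted p = 0.118), and after quantile normalization it was 0.0027.

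The upstream sequences of both pump genes are shown because their probe sets are 2 of the 3 that lay higher at an unadjusted p under 0.05, and both genes are known interferon targets. RefSeq windows of 250 bases before the annotated start (GRCh38.p14) were searched on both strands for 4 motifs, which stand in capitals and may overlap each other. These were GAAANNGAA (letters of an interferon-stimulated response element), GGGNNTTNC (letters of an NF-kB site), TGACG (letters of a cAMP response element, bound by CREB and ATF factors) and CCAAT (bound by NF-Y). Of 35116 promoter windows of that length, 6.88%, 14.2%, 21.2% and 32% held them, in that order. The TAP1 window at chr6:32853705-32853954 (minus strand) held GAAANNGAA at 2 overlapping places, GGGNNTTNC and CCAAT, and the TAP2 window at chr6:32838740-32838989 (minus strand) held GAAANNGAA and TGACG.
TAP1: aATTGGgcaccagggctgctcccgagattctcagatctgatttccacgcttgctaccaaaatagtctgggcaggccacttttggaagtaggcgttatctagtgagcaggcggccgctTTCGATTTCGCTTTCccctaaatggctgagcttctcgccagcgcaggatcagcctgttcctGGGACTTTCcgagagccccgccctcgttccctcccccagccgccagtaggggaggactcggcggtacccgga
TAP2: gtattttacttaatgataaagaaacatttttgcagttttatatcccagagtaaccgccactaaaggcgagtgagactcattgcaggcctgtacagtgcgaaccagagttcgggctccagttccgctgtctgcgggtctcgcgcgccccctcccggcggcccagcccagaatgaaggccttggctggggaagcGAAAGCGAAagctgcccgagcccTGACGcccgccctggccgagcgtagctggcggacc

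A second TAP1 window, from another annotated start, held none of the 4. Windows were found for 8 of the 9 genes, 10 windows in all, and the gene without one is HLA-E. GAAANNGAA was found for 4 of the 8 genes (TAP1, TAP2, TAPBP and B2M), GGGNNTTNC for 5, TGACG for 6 and CCAAT for 5. Counted by window, these were 4, 5, 6 and 5 of 10, beside 6.88%, 14.2%, 21.2% and 32% of all promoter windows. The windows are not independent. TAP1 and PSMB9 share the same CCAAT, and the HLA-B and HLA-C windows are identical at 91.9% of aligned bases. A match is a run of letters and does not show that a factor binds there. Nor does the lack of a match show that a site is absent.

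TAPBP, the loading chaperone, was read by 3 probe sets, and all 3 differences were below 0. TAPBP 208829_at read 10.24, 10.14 and 10.35 with the miR-9 LNA and 10.23, 10.29 and 10.23 with the scrambled LNA. The scrambled arrays lay inside the range of the miR-9 arrays, and the difference was -0.0061 ± 0.071 (limma adjusted p = 0.972). TAPBP 1555565_s_at differed by -0.085 ± 0.13. TAPBP 210294_at read 7.34, 7.47 and 7.64 with the miR-9 LNA against 7.52, 7.57 and 7.80, overlapping groups that differed by -0.15 ± 0.10 (limma unadjusted p = 0.188, adjusted p = 0.508). It was negative in all 3 same-numbered pairs, at -0.18, -0.10 and -0.17, and limma's unadjusted p with the replicate block was 0.0366. After quantile normalization TAPBP 208829_at stood at -0.19 (limma unadjusted p = 0.0463, adjusted p = 0.9), and after median centring at 0.021.

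B2M, the light chain shared by class I molecules, was read by 2 bright probe sets and a dim one. B2M 201891_s_at read 13.65, 13.60 and 13.57 with the miR-9 LNA and 13.20, 13.59 and 13.61 with the scrambled LNA. Scrambled replicate 1 alone lay low, and the other 5 arrays overlapped. The difference was 0.14 ± 0.11 with all arrays (limma adjusted p = 0.565) and 0.0060 ± 0.058 without scrambled replicate 1. B2M 216231_s_at read 12.94, 12.84 and 13.08 against 12.39, 12.88 and 13.04, with differences of 0.18 ± 0.16 and, without that array, -0.011 ± 0.091. In the dim B2M 232311_at, at 7.65, 7.65 and 7.59 against 7.40, 7.88 and 7.92, scrambled replicate 1 was again lowest while the other scrambled arrays were the highest of all. Its difference was -0.10 ± 0.13 with all arrays and -0.27 ± 0.059 without scrambled replicate 1 (limma unadjusted p = 0.00297, adjusted p = 0.301).

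The heavy chains HLA-B and HLA-C present peptides to T cells and also engage receptors of NK cells. HLA-B 209140_x_at read 13.57, 13.63 and 13.63 with the miR-9 LNA and 13.22, 13.54 and 13.63 with the scrambled LNA. HLA-B 211911_x_at read 12.79, 12.90 and 13.03 against 12.56, 12.88 and 13.05, and 208729_x_at read 12.66, 12.70 and 12.87 against 12.30, 12.67 and 12.84. All 3 HLA-B probe sets put scrambled replicate 1 lowest, and their other scrambled arrays overlapped the miR-9 arrays. The HLA-B differences were 0.15 ± 0.11, 0.076 ± 0.13 and 0.14 ± 0.14 (limma adjusted p = 0.531, 0.788 and 0.629), and 0.023, -0.056 and -0.0090 without scrambled replicate 1.

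HLA-C 208812_x_at read 13.43, 13.51 and 13.49 with the miR-9 LNA against 13.15, 13.38 and 13.48, overlapping groups that differed by 0.14 ± 0.090 (limma adjusted p = 0.496). HLA-C 214459_x_at differed by 0.13 ± 0.11 and 216526_x_at by 0.076 ± 0.076, with scrambled replicate 1 lowest at both. HLA-C 211799_x_at was unlike them, at 11.03, 11.27 and 11.37 against 11.05, 11.29 and 11.36. Its same-numbered arrays nearly coincided, miR-9 replicate 1 was the lowest, and the difference was -0.0056 ± 0.11. Without scrambled replicate 1 the HLA-C differences were 0.043, 0.022, 0.0079 and -0.098 in the same order.

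Across the 6 arrays HLA-B and HLA-C varied together, with a median Pearson r of 0.94 over 12 pairs of probe sets (0.67 to 0.99), and the bright B2M probe sets followed HLA-B at a median of 0.93 over 6 pairs. These correlations are descriptions of arrays that share hybridization, scaling and the low scrambled replicate 1. Of the 10 HLA probe sets here, 9 carry the suffix x_at, which Affymetrix gives to sets whose probes may match other transcripts. The heavy chain genes are near-identical in parts. The signal of HLA-B, of HLA-C and of the HLA-E sets with that suffix is therefore uncertain as to gene.

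The HLA-B, HLA-C and B2M windows are shown beside each other because the probe sets of these genes varied together from array to array. Whether the windows have a part in that variation was not tested. The HLA-B window (chr6:31357180-31357429, minus strand) and the HLA-C window (chr6:31272093-31272342, minus strand) were identical at 226 of 246 aligned bases, 91.9%. Both held TGACG with CCAAT downstream of it in both orientations, and HLA-C held a further reverse CCAAT upstream. The B2M window (chr15:44711267-44711516, plus strand) held TGACG and, downstream, CCAAT in reverse orientation. GGGNNTTNC was found in the HLA-B and B2M windows, and GAAANNGAA in that of B2M. Capitals mark the same 4 motifs as in the pump genes.
HLA-B: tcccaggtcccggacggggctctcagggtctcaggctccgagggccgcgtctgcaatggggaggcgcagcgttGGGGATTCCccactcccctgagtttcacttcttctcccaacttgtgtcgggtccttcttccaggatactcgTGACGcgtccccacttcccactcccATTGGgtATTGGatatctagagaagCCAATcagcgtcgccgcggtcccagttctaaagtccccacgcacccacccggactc
HLA-C: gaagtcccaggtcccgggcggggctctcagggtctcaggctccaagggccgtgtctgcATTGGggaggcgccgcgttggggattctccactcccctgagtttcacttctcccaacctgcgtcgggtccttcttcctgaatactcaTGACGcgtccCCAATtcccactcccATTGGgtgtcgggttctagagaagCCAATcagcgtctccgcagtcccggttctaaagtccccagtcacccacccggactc
B2M: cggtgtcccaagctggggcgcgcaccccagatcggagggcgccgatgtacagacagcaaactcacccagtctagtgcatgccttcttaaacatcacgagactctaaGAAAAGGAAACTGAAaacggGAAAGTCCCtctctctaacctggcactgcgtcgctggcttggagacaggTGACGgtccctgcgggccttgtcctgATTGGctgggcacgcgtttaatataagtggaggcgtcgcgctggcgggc

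HLA-E is a heavy chain of little variation and the ligand of an NK cell inhibitory receptor. At 2 of its 3 probe sets every miR-9 array exceeded every scrambled array, beside 18.1% of all tested probe sets. HLA-E 200904_at read 9.08, 9.08 and 9.09 with the miR-9 LNA and 8.90, 8.84 and 8.91 with the scrambled LNA. The miR-9 arrays were nearly level and all above the scrambled arrays. The HLA-E means were 9.08 ± 0.0040 and 8.88 ± 0.037, a difference of 0.20 ± 0.055 (limma unadjusted p = 0.007, adjusted p = 0.296). It was 0.21 without scrambled replicate 1 (limma unadjusted p = 0.00813) and 0.068 after quantile normalization (limma unadjusted p = 0.358).

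HLA-E 200905_x_at read 11.45, 11.39 and 11.41 against 11.25, 11.31 and 11.30, again without overlap. It differed by 0.13 ± 0.056 (limma unadjusted p = 0.0527, adjusted p = 0.351), and by -0.072 after quantile normalization. HLA-E 217456_x_at read 10.33, 10.39 and 10.47 against 10.38, 10.39 and 10.43, overlapping groups that differed by -0.0020 ± 0.062. The 3 HLA-E probe sets therefore disagreed, and the pairwise r among them ran from -0.094 to 0.88. The r of HLA-E with HLA-B had a median of 0.46 over 9 pairs.

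**Figure D2:**
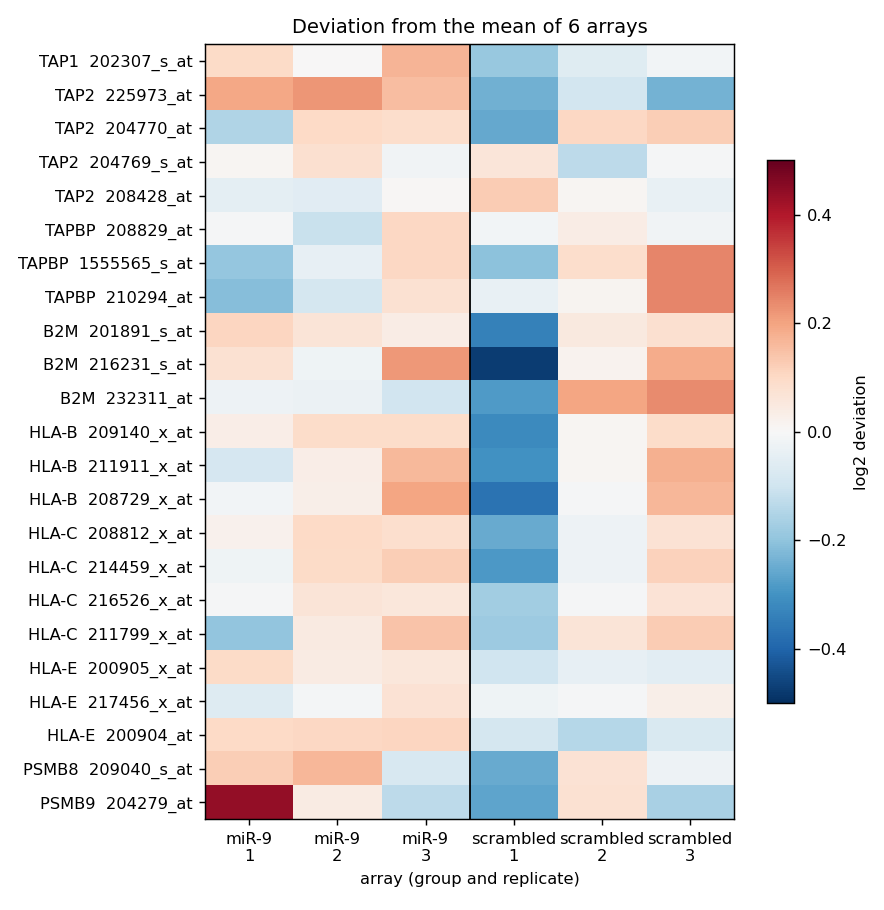
Deviation of each class I probe set (rows) from its own mean over the 6 arrays (columns), in log2 units, blue below and red above the mean. The column of scrambled replicate 1 is blue for the HLA-B and B2M probe sets, and TAP2 225973_at and HLA-E 200904_at are red in all 3 miR-9 columns.

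The immunoproteasome subunits PSMB8 and PSMB9 replace standard catalytic subunits and change which peptides are cut. PSMB9 204279_at read 11.20, 10.80 and 10.63 with the miR-9 LNA and 10.50, 10.84 and 10.60 with the scrambled LNA. MiR-9 replicate 1 was the high array and scrambled replicate 1 the low one, and the groups overlapped. The PSMB9 means were 10.88 ± 0.29 and 10.64 ± 0.17, a difference of 0.23 ± 0.15 (limma adjusted p = 0.491). Leaving out arrays 1 at a time moved it between 0.072 (without miR-9 replicate 1) and 0.36 (without miR-9 replicate 3). PSMB8 209040_s_at read 10.45, 10.50 and 10.25 against 10.08, 10.40 and 10.31, overlapping groups that differed by 0.14 ± 0.10 (limma adjusted p = 0.544), and by 0.045 ± 0.089 without scrambled replicate 1.

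PSMB9 and TAP1 are divergent neighbours, with 487 bases between the PSMB9 start and the TAP1 start whose window is printed with the pump genes, and these windows overlap by 13 bases. The PSMB9 window (chr6:32853942-32854191, plus strand) is shown because the stretch between these starts is known to drive both genes. It held TGACG in reverse orientation and CCAAT, which is the CCAAT found in the TAP1 window, read on the opposite strand. GAAANNGAA and GGGNNTTNC were found in the TAP1 window and not in that of PSMB9.
PSMB9: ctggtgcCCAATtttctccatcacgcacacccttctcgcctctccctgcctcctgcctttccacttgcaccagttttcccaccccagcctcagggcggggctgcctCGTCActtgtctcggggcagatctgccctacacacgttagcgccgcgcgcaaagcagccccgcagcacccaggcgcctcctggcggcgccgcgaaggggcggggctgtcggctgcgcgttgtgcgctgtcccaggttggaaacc

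The levels of these neighbours did not follow each other closely. PSMB9 204279_at correlated with TAP1 202307_s_at at r = 0.43 over the 6 arrays, and 47.3% of 27306 other tested probe sets had a higher r with TAP1. The named genes most like TAP1 over the 6 arrays were FIRRM (r = 0.997), COG5 (r = 0.997) and DNAJC3 (r = 0.996). Of the other tested class I probe sets, those of highest r with TAP1 were HLA-E 200905_x_at at 0.88, B2M 216231_s_at at 0.84 and HLA-B 208729_x_at at 0.80, and TAP2 225973_at was at 0.74. These r values describe 6 arrays that share scaling and the low scrambled replicate 1.

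Differences in the deposited values went with the level of the probe set, so the class I probe sets were set beside others of their level. In the brightest bin (means from 9.48) the median difference of all 5462 probe sets was 0.19, with a 10th percentile of 0.056 and a 90th of 0.29. Of the 15 class I probe sets in that bin, 14 lay below this median, and PSMB9 204279_at, at 0.23, lay above it. TAP2 225973_at, in the bin of means from 8.37 to 9.48, was above that bin's 90th percentile of 0.26. By definition, about 10% of the tested probe sets of a bin lie above its 90th percentile and about 10% below its 10th. Of the 22 class I probe sets, 6 lay outside these limits. TAP2 225973_at lay above, and all 3 TAPBP probe sets, HLA-C 211799_x_at and HLA-E 217456_x_at lay below. These are descriptions with no test, since probe sets of a gene share their transcript.

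**Figure D3:**
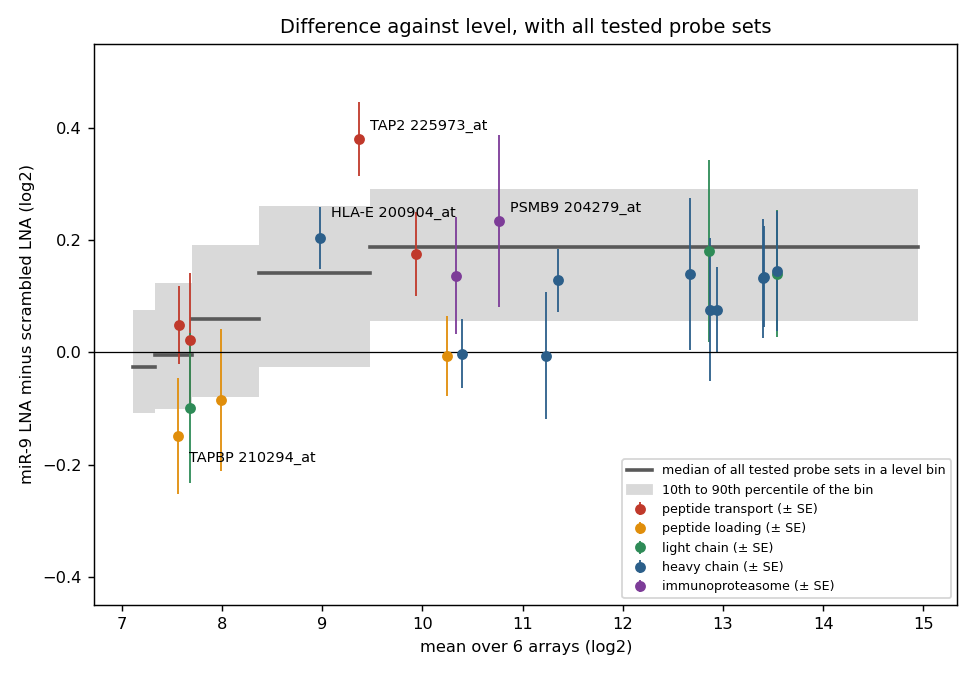
Difference between the miR-9 LNA and the scrambled LNA (log2, vertical axis; bars are limma standard errors) against the mean over the 6 arrays (log2, horizontal axis) for the 22 tested class I probe sets, coloured by role. Grey lines are the median and grey bands the 10th to 90th percentile of all tested probe sets in 5 equal bins by level. Of the 15 class I points in the brightest bin 14 sit below its median of 0.19, and TAP2 225973_at sits above the band of its bin.

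Scaling turned the sign of many class I differences. On the brightest probe set of each gene the median of the 9 genes was 0.14 beside 0.083 over 12367 tested genes. Of the 9 genes 8 lay higher, beside 8661 of the 12367. The 9 genes were bright, with a median level of 10.76 beside 8.42 over all tested genes. The brightest bin, which held probe sets of 8 of them, had a median difference of 0.19. After quantile normalization the median of the 9 genes was -0.0070 beside -0.00083, with 3 of 9 higher (TAP1, TAP2 and PSMB9) beside 6130 of the 12367. Of the 22 probe sets 15 then lay lower, beside 48.5% of all. With an unadjusted p under 0.05, limma then put 1 class I probe set higher (TAP2 225973_at) beside 2.38% of all, and 2 lower (TAPBP 208829_at and HLA-E 217456_x_at) beside 2.17%. Over all tested probe sets those counts were 3755 higher and 171 lower in the deposited values, and 650 and 593 after quantile normalization.

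Without scrambled replicate 1 the median of the 9 genes was 0.045 beside 0.057 over all tested genes. Limma then put 2 class I probe sets higher with an unadjusted p under 0.05 (TAP2 225973_at and HLA-E 200904_at) beside 10% of all, and 1 lower (B2M 232311_at) beside 3.17%. A fit with the replicate block put 3 higher beside 21.8% and 1 lower (TAPBP 210294_at) beside 1%, and 5944 of all probe sets higher against 3755 without the block. All 3 same-numbered pairs were higher at 8 of 22 class I probe sets, beside 40.2% of all.

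**Figure D4:**
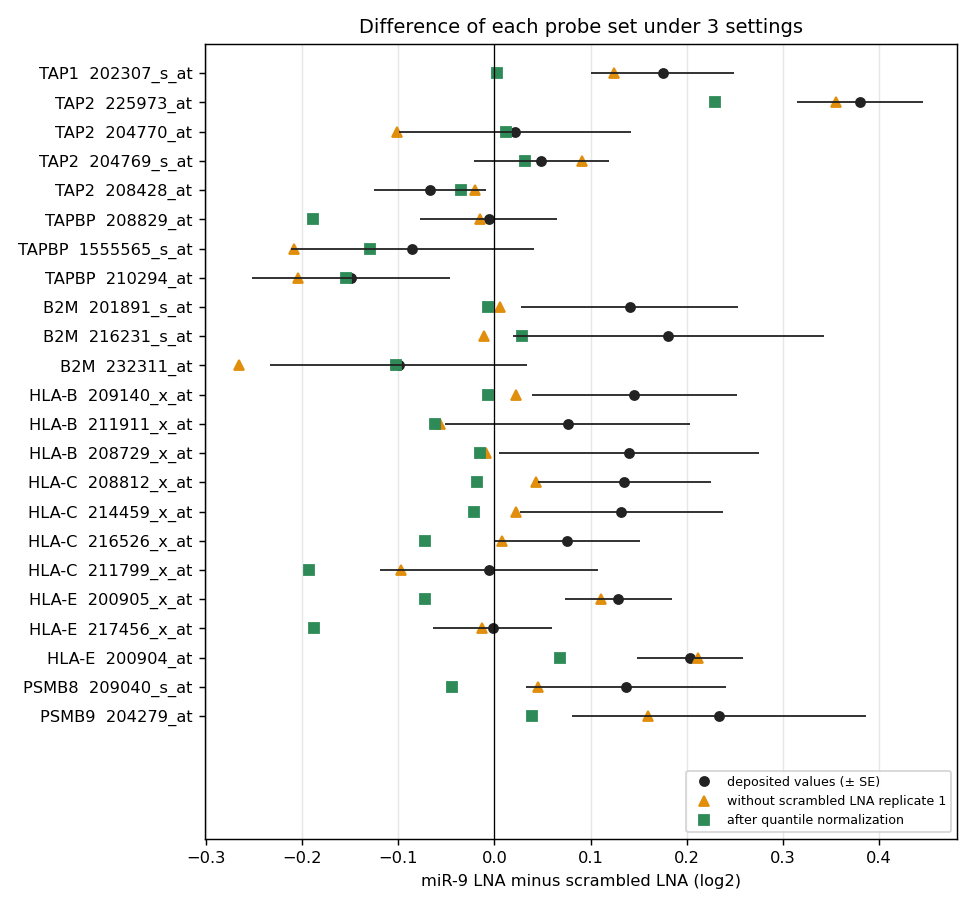
Difference between the miR-9 LNA and the scrambled LNA (log2, horizontal axis) of the 23 class I probe sets (vertical axis) in the deposited values (black circles, bars are standard errors), without scrambled LNA replicate 1 (orange triangles) and after quantile normalization (green squares). TAP2 225973_at stays at 0.23 or more under all 3, while all 3 HLA-B probe sets lie below 0 after quantile normalization.

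Other genes of the class I pathway were taken from 5 lists, each gene read on its brightest tested probe set, and none of them passed the limma threshold. With an unadjusted p under 0.05, 17.4% of all tested genes lay higher and 0.598% lower, which is the background for these lists. The shares were 1.88% and 2.34% after quantile normalization, 12.8% and 1.16% without scrambled replicate 1, and 25.9% and 0.784% with the replicate block. At any p, 8661 of the 12367 tested genes lay higher in the deposited values, 6130 after quantile normalization and 8655 without scrambled replicate 1. Genes of peptide loading and trimming had 9 of 10 members tested, with 7 higher and 2 lower and a median of 0.14. In this list 1 gene, TPP2, a peptidase that trims peptides in the cytosol, lay higher with an unadjusted p under 0.05, by 0.20 ± 0.067 (limma adjusted p = 0.296), and by 0.072 after quantile normalization (limma unadjusted p = 0.224). PDIA3, the oxidoreductase of the loading complex, read 10.54, 11.48 and 10.99 against 10.24, 9.80 and 10.89. Its difference of 0.69 ± 0.31 (limma unadjusted p = 0.0583, adjusted p = 0.36) was the highest of the 12367 tested genes, but its groups overlapped and each spread widely, with SDs of 0.47 and 0.55. The chaperone CANX (calnexin) differed by 0.17 ± 0.078, and by 0.10 without scrambled replicate 1.

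The loading and trimming list turned with scaling. After quantile normalization its median was -0.031, with 4 higher and 5 lower. With an unadjusted p under 0.05, 0 then lay higher and 2 lower, ERAP1 at -0.15 and TAPBPL at -0.19, both named after their values were seen (limma unadjusted p = 0.0266 and 0.0465). ERAP1 trims peptides in the endoplasmic reticulum, and TAPBPL is a relative of tapasin. The list had 2 genes higher at that p without scrambled replicate 1 (TPP2 and CALR, the chaperone calreticulin) and 2 with the replicate block (TPP2 and CANX, limma unadjusted p = 0.0337 for CANX). CALR, also named after its values were seen, differed by 0.14 ± 0.15 in the deposited values and by -0.031 after quantile normalization.

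Standard 20S proteasome subunits, which the immunoproteasome shares or replaces, had 13 of 14 members tested and all 13 higher, beside 8661 of 12367 tested genes. Differences ran from 0.12 to 0.24 with a median of 0.20. The mean levels of these subunits ran from 11.19 to 12.91, and the brightest bin of all tested probe sets (means from 9.48) had a median difference of 0.19. Here 2 of 13 lay higher with an unadjusted p under 0.05, PSMA1 by 0.24 ± 0.096 and PSMB6 by 0.22 ± 0.095 (limma adjusted p = 0.334 and 0.347), with PSMA7 at 0.21 ± 0.093. Their median was 0.11 without scrambled replicate 1, with all 13 higher, and 0.029 after quantile normalization, with 7 of 13 higher. Under both of these settings, and with the replicate block, 0 of 13 had an unadjusted p under 0.05. PSMB6 is the standard subunit that PSMB9 replaces. The inducible partners POMP (an assembly factor), PSME1 (a proteasome activator) and PSMB10 (another inducible subunit) differed by 0.23 ± 0.12, 0.18 ± 0.10 and 0.16 ± 0.16, with 0 of 3 under an unadjusted p of 0.05. Without scrambled replicate 1 they were 0.15, 0.11 and 0.22, and with the replicate block PSMB10 alone passed that p (limma unadjusted p = 0.0442).

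Regulators of class I genes had 23 of 26 members tested, 21 higher and 2 lower, with a median of 0.13 that was -0.0030 after quantile normalization. With an unadjusted p under 0.05, 5 of 23 lay higher and 0 lower. That count was 9 higher with the replicate block and 6 without scrambled replicate 1, and after quantile normalization it was 1 higher (CREB1) and 1 lower (USF2, a factor named after its values were seen). NFKB1, an NF-kB subunit, was at 10.34 ± 0.063 and 10.06 ± 0.094, and its difference was 0.097 after quantile normalization. CREB1, a CRE-binding factor, was at 10.34 ± 0.039 and 9.99 ± 0.19, and IFNAR1, a chain of the type I interferon receptor, at 8.43 ± 0.075 and 8.21 ± 0.066. The other two were JAK2, a kinase of cytokine receptors, and NLRC5, the class I transactivator, both named after their values were seen. NLRC5 read 8.47, 8.60 and 8.51 with the miR-9 LNA and 8.17, 8.41 and 8.21 with the scrambled LNA. Its groups did not overlap, and it differed by 0.26 ± 0.082 (limma unadjusted p = 0.0143, adjusted p = 0.296), by 0.21 without scrambled replicate 1 and by 0.16 after quantile normalization.

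Other class I and class I-like genes had 8 of 12 members tested, 5 higher and 3 lower, with a median of 0.038 and 0 with an unadjusted p under 0.05. The median was -0.012 without scrambled replicate 1 and -0.037 after quantile normalization, with 2 higher and 6 lower. MICB, a stress ligand of an NK cell receptor, differed by 0.23 ± 0.11, by 0.12 without scrambled replicate 1 and by 0.073 after quantile normalization, and had an unadjusted limma p of 0.027 with the replicate block. HLA-F differed by 0.16 ± 0.084, 0.079 and -0.033 in the deposited values, without that array and after quantile normalization, and the iron regulator HFE by -0.10 ± 0.072, -0.073 and -0.13. Probe sets annotated to several HLA symbols numbered 6, all of class II genes and 0 with a class I symbol. Of these, 5 were tested, and the 6 differences ran from -0.051 to 0.28.

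**Figure D5:**
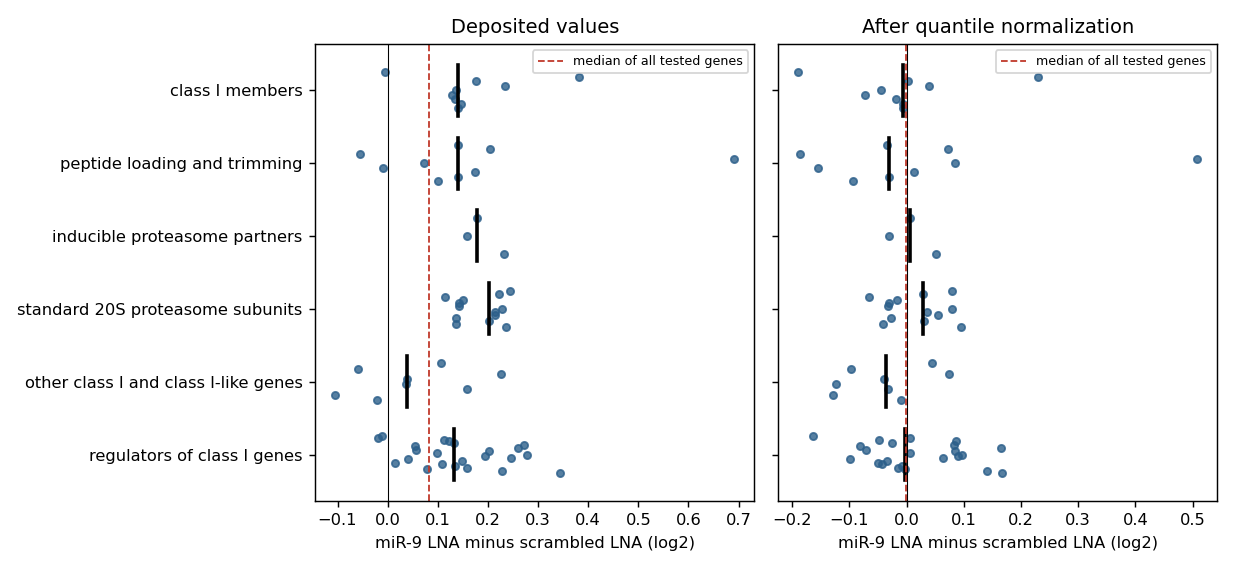
Difference between the miR-9 LNA and the scrambled LNA (log2, horizontal axis) of each tested gene (points, brightest probe set) in the class I genes and the 5 related lists, in the deposited values (left) and after quantile normalization (right). Black bars are list medians and the dashed red line is the median of all tested genes, 0.083 on the left and -0.00083 on the right. The 13 standard proteasome subunits all lie above 0 on the left, and 7 of 13 do on the right.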

How the data were processed

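RNA was labelled and hybridized, and the authors deposited log2 expression values. The submitters' processing notes name affy and RMA, whose versions and options are not given in the sources used here. From these values, 62 control probe sets were left out, and the 27307 of 54613 others at or above the median level were tested with limma 3.58.1 in R 4.3.3 (lmFit, eBayes, two-sided, Benjamini-Hochberg). The member below that level was read from an unfiltered fit. Symbols came from the platform annotation (41091 probe sets with 1, 1801 with several, 11721 with none), and all 9 members matched the RefSeq gene table of GRCh38.p14 by Entrez ID. A listed gene was read on its brightest tested probe set. Named are all member probe sets, the 3 tested genes of smallest p in each list, and the 3 genes most like TAP1. Further list genes were named after their values were seen and are marked so. The members and lists were chosen with earlier results of these data known.

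Deviations of same-numbered arrays from their group means had r = 0.23, 0.19 and 0.63 over tested probe sets, and other pairs -0.43 to 0.17. Only the pair of replicate 3 stood clear of the other pairs. Deviations from a group mean constrain each other, so these r values are not independent. The replicate numbers in the labels were used as a block in an alternative. That choice rests on these same data, a limit on the p-values given with the block. Other alternatives were the filter, normalization, variance model, array weights and leaving out each array. The number of arrays limits the precision. The limma script was tested on simulated data. Sequences are from RefSeq (GRCh38.p14).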

Additional observations from a re-analysis of the deposited data

How the results depend on the processing

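No alternative run brought a class I probe set past the threshold, and the lowest limma adjusted p over 293 alternative values was 0.121. Of 23 probe sets, 7 kept the sign of their difference under every alternative run for them. The same count was not made over all tested probe sets, so it is no result about class I genes. Signs also moved outside these genes: of all tested probe sets, 66.9% lay higher as deposited and 51.5% once quantile normalized. After quantile normalization the differences turned to -0.0068 for B2M 201891_s_at, -0.0070, -0.062 and -0.015 for HLA-B 209140_x_at, 211911_x_at and 208729_x_at, -0.019, -0.022 and -0.072 for HLA-C 208812_x_at, 214459_x_at and 216526_x_at, -0.072 for HLA-E 200905_x_at and -0.045 for PSMB8. Median centring turned TAPBP 208829_at to 0.021, HLA-C 211799_x_at to 0.021 and HLA-E 217456_x_at to 0.025, and array weights turned TAP2 204770_at to -0.035. Leaving out arrays 1 at a time, the differences that turned ranged from -0.10 to 0.10 (TAP2 204770_at), -0.0037 to 0.091 (TAP2 204769_s_at), -0.060 to 0.048 (TAPBP 208829_at), -0.21 to 0.015 (TAPBP 1555565_s_at), -0.011 to 0.32 (B2M 216231_s_at), -0.056 to 0.18 (HLA-B 211911_x_at), -0.0090 to 0.26 (HLA-B 208729_x_at), -0.098 to 0.091 (HLA-C 211799_x_at) and -0.039 to 0.030 (HLA-E 217456_x_at). The cause was not tested.

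The median of the 9 genes was -0.0070 after quantile normalization and between 0.045 and 0.21 leaving out arrays, the low end being the value that omits scrambled replicate 1. With an unadjusted p under 0.05, class I probe sets higher numbered 4 without the level filter (8.88% of all tested probe sets), 4 after median centring (17.2%) and 1 after quantile normalization (2.38%). They numbered 2 to 3 under every other alternative, beside 8.42% to 21.8% of all. Class I probe sets lower numbered 2 after quantile normalization (2.17% of all), 1 with array weights (4.33%), 1 with the replicate block (1%) and 0 to 1 leaving out arrays (0.154% to 3.17%). Over all probe sets, those higher numbered 650 after quantile normalization, 5944 with the replicate block and 2300 to 4164 leaving out arrays. Those lower numbered 1032 without the level filter, 19 with a filter at the 75th percentile, 593 after quantile normalization, 65 after median centring, 355 with a trended robust variance, 1183 with array weights, 274 with the replicate block and 42 to 865 leaving out arrays. The block brought no class I probe set past the threshold. The dimmer class I probe sets have no value under the filter at the 75th percentile.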
